A study of Mus musculus with 9 samples.

Results

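Regulated secretion genes were followed across the pancreas of mouse embryos at e18.5, in 9 bulk RNA-seq libraries of whole organ in 3 genotype groups of 3 libraries. The 34 genes were a named list of granins, prohormone-processing enzymes and genes of dense-core granules and their exocytosis, and all 34, each protein-coding, were among the 55453 gene symbols in the count files. They were sorted by role into 8 granins and granin-like proteins, 4 processing enzymes, 3 granule membrane proteins, 7 Rab GTPases and Rab effectors, 4 calcium sensors, 6 genes of the fusion machinery and 2 others. Control embryos carried Pdx1:Cre alone, a transgene that drives Cre recombinase from regulatory DNA of Pdx1, a transcription factor of pancreatic progenitors and beta cells; all 3 groups carry it. The second group was labelled Pdx1:Cre with Grg3, and the third Pdx1:Cre with Grg3 and Grg4, all on a mixed C57BL6 background. Grg3 and Grg4 are Groucho co-repressors, encoded by Tle3 and Tle4, and the labels do not name the mutant alleles or say how they were made. Each library is a whole pancreas, so Cre-negative cells (vessels, nerves, mesenchyme) are part of every sample.

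Endocrine cells and neurons store peptide hormones in dense-core granules, which release their load only when calcium rises. Granins are acidic proteins that condense with the hormones inside the granule. Prohormone convertases cut the precursors there, carboxypeptidase E trims the cut ends, and an amidating enzyme finishes some peptides. Rab GTPases with their effectors bring granules to the plasma membrane. SNARE proteins, held by complexins and triggered by synaptotagmins, then fuse them with it. Acinar cells use a related machinery for zymogen granules, so some of these genes are not restricted to islets.

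Gene counts summed to 46817453 to 62744499 per library, and all 34 genes passed the filter on low counts, as did 19166 genes in all. The Tle3 gene was higher, not lower, in the libraries labelled mutant: 63.1, 67.7 and 63.6 TMM-scaled CPM (counts per 1000000 gene counts) in control replicates 1, 2 and 3, 148, 167 and 145 CPM in the Grg3 libraries and 131, 126 and 146 CPM in the Grg3 Grg4 libraries (log2 changes 1.24 and 1.05, edgeR adjusted p = 0.00027 and 0.000557). Tle4 stood at 7.68 to 7.84, 9.83 to 13.8 and 8.63 to 15.5 CPM in the same order of groups. A count over the whole gene does not show whether an exon was deleted, so the groups below are named by their labels. Xist and Y-linked counts gave 5 male libraries, which were all 3 of the Grg3 Grg4 group and replicate 1 of each other group. Summed liver markers were at 212 to 228 CPM in controls, 353 to 1578 CPM in Grg3 and 793 to 1834 CPM in Grg3 Grg4 libraries, and 7 muscle markers, smooth muscle genes included, summed to 1558 CPM in Grg3 Grg4 replicate 2 against 122 to 174 CPM in controls. The liver gene Alb was at 2.37 to 5.47, 37.9 to 636 and 257 to 810.1 CPM in the 3 groups, and the striated muscle gene Actc1 at 172 CPM in Grg3 Grg4 replicate 2 against 0.0417 to 0.264 CPM in controls. The part of these admixed tissues in the values below was not tested.

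The cyclic AMP response element, TGACGTCA, is a known feature of the promoters of granin and convertase genes. It is shown here because the genes that carry it include a member called lower by edgeR below (Scg2) and members that edgeR did not call (Chgb, Pcsk1, Celf3). The 250 bases before each start site were searched on both strands in RefSeq promoters of GRCm38.p6, which held 27 of the 34 genes (37 promoters). TGACGTCA was found in 4 of these 27 genes (14.8%), Celf3, Chgb, Pcsk1 and Scg2, against 1.77% of 27025 genes in the whole table. The variant TGACGTAA was found in Chga (3.70% of the 27 genes, 0.525% of all genes) and TGACGCAA in Ptprn (3.70% and 0.507%). Windows of 30 bases around these elements are printed 5′ to 3′ on the gene's strand, with the element in capitals.
Chga chr12:102554886-102554915 (plus strand): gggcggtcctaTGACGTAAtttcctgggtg
Chgb chr2:132781559-132781588 (plus strand): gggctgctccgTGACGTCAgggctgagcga
Scg2 chr1:79440076-79440105 (minus strand): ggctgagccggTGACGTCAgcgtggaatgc
Pcsk1 chr13:75089768-75089797 (plus strand): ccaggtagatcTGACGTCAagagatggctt
Celf3 chr3:94484208-94484237 (plus strand): ggcagaagtgaTGACGTCAccacggtcgcc
Ptprn chr1:75264307-75264336 (minus strand): ttacgccagtaTGACGCAAataggcataag
Counted back from a RefSeq start site, the first base of the element lies 44 bases upstream in Chga, 72 in Chgb, 68 in Scg2, 78 in Pcsk1, 108 in Celf3 and 117 in Ptprn. The Celf3 element also lies 111 and 139 bases upstream of other start sites. All of these are inside the gene, which starts at 94478295, and the Celf3 promoters further upstream lack the element. Another Ptprn promoter lacks its element as well. The Chgb and Scg2 windows fall inside a first exon of the GENCODE annotation, which starts those genes further upstream, and the other 4 windows hold no annotated exon base.

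Other motifs were fewer or absent. The Foxa core TGTTTAC was found in Celf3 and Pcsk1 (7.41% of the 27 genes, 3.54% of all genes), and the E-box CAGATG, a site type of NeuroD1 and Neurog3, in Celf3 (3.70% and 16.3%). No match was found to the core of the neuron-restrictive silencer element (REST core) or to the RFX site, which 0.0370% and 0.292% of all genes hold. A match to letters is a description of the sequence and not evidence of binding.

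Read per length of merged exons, the members spanned 0.115 to 201 CPM per kb in the control pancreas. Cpe, which encodes carboxypeptidase E, was highest at 201 ± 17.1 CPM per kb (SD, n = 3), followed by the granin genes Chga at 167 ± 22.7 and Chgb at 80.8 ± 5.05 CPM per kb. These 3 genes made up 51.8% of the summed per-length level of all 34. Rab3d, a Rab GTPase known from zymogen granules, was next at 76.6 ± 2.97 CPM per kb, and Scg2 followed at 48.4 ± 5.87 CPM per kb. At the low end, 6 genes stayed under 1 CPM per kb: Unc13a, Snap25, Cplx1, Gad1, Syt4 and Rab3c. Of the 33 pairs of neighbours in this order, 25 overlapped between control libraries, so the order of most neighbours is not settled by 3 libraries. Vamp2 moved from rank 11 in controls to rank 7 in Grg3 and rank 5 in Grg3 Grg4 libraries.

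**Figure D1:**
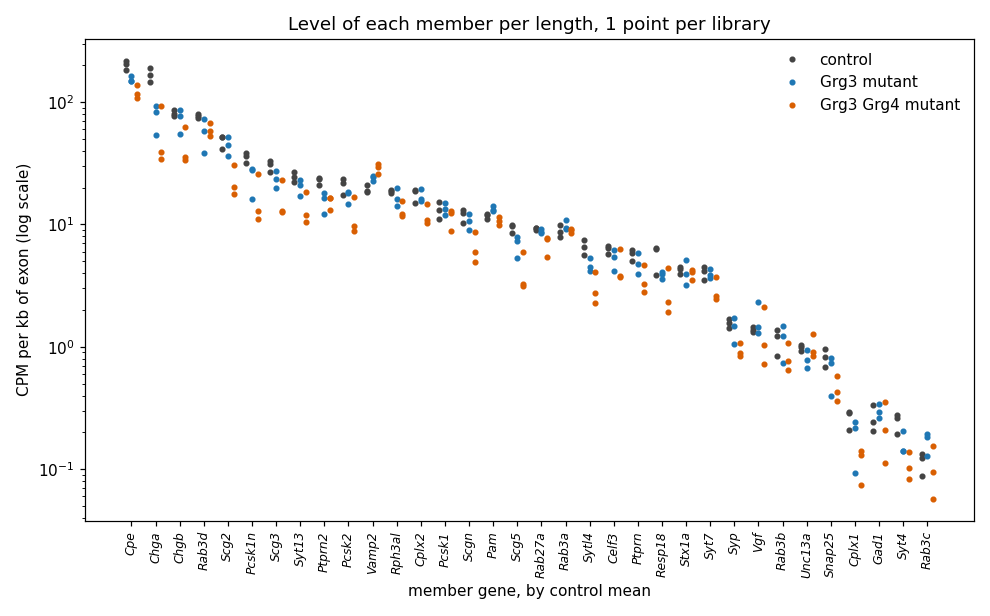
CPM per kb of merged exon (log scale) for each of the 34 genes, ordered by the control mean, with 1 point per library and 1 colour per group. Cpe and Chga lead at 201 and 167 CPM per kb in the control mean, and at Vamp2 all blue and orange points lie above the grey ones.

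In the Grg3 Grg4 libraries, 4 of the 34 genes were called lower than in controls and 1 was called higher (edgeR quasi-likelihood test, Benjamini-Hochberg adjusted p under 0.05 over 19166 genes). The called genes were Cpe, Scg2, Scg5 and Sytl4 on the lower side and Vamp2 on the higher side. Over all genes tested, 0.897% were called lower and 1.24% higher (2.14% in either direction). The fitted change was below 0 for 31 of the 34, against 48.1% of all genes, and its median was -0.62 on the log2 scale, against 0.01 over all genes. For 21 members every Grg3 Grg4 library lay below every control library, and for 1 (Vamp2) above it, where all genes gave 14.2% and 14.9%. In bulk tissue, fewer endocrine cells and less RNA per endocrine cell cannot be told apart, here and in all results below. The count of 4 depended on the library left out: it was 15 without Grg3 Grg4 replicate 3, 1 without replicate 2, 0 without replicate 1, and 1, 0 and 0 without control replicates 1, 2 and 3. Over all genes the share called lower was 0.9%, 0.27%, 0.283%, 0.297%, 0.171% and 0.131% in the same order, so calls became fewer over all genes too in most of these runs. The call of Vamp2 was lost without Grg3 Grg4 replicate 2 and without control replicate 2 or 3. With embryo sex in the model, edgeR called 0 members in either direction, as it called 0.157% of all genes, and the median was -0.59. Without that term 23 members had an unadjusted p under 0.05, against 20.2% of all genes. DESeq2 called 18 members lower and 1 higher, against 3.45% and 4.65% of all genes. By limma's voom the counts were 16 lower and 1 higher, against 2.51% and 2.87%.

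In the Grg3 libraries, 0 of the 34 genes were called against controls by edgeR, where 0.694% of all genes were called lower and 0.704% higher (1.4% in either direction). An unadjusted p under 0.05 was reached by 7 members, a share near the 19.1% of all genes. DESeq2 called 2 lower (Cpe and Ptprn2), where it called 3.99% of all genes lower, and limma's voom called 0, where it called 2.2% of all genes in either direction. The fitted change was below 0 for 26 members (47.5% of all genes), with a median of -0.19 against 0.02 over all genes. In 7 members all Grg3 libraries lay below all controls and in 2 above, against 12% and 12.6% of all genes. Between the 2 mutant groups, edgeR again called 0 members. There 16 members had an unadjusted p under 0.05 (17.3% of all genes), 31 were below 0 (50.3% of all genes), and the median of Grg3 Grg4 minus Grg3 was -0.45 against -0.00 over all genes. DESeq2 called 7 lower in that comparison (Chgb, Cpe, Cplx2, Pam, Scg2, Scg5 and Scgn), against 2.13% of all genes, and voom called 0, against 0.125% in either direction. By edgeR, all genes gave 0.0574% called lower and 0.13% higher there (0.188% in either direction), and groups that did not overlap in 9.3% (lower) and 11.8% (higher), against 8 and 1 of the members. The comparisons of both mutant groups with control share the control libraries, so their values are not independent of each other.

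**Figure D2:**
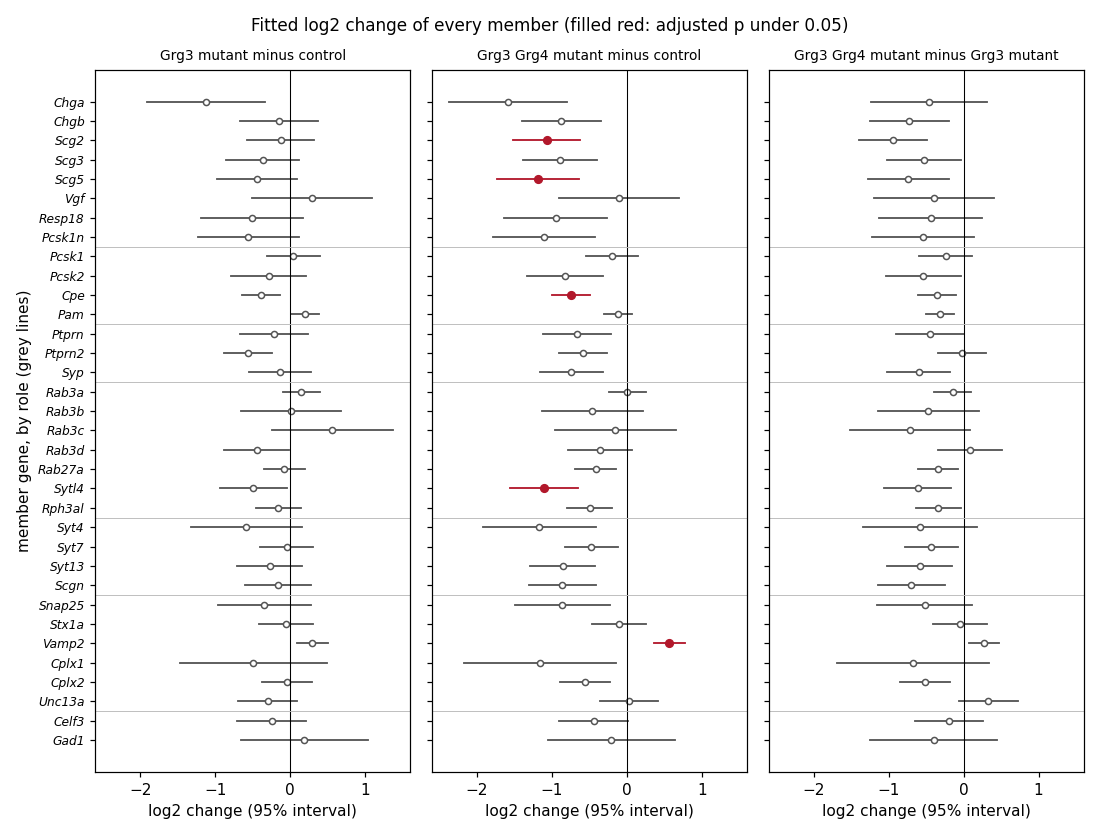
Fitted log2 change with its 95% interval for each of the 34 genes, in 3 panels for Grg3 minus control, Grg3 Grg4 minus control and Grg3 Grg4 minus Grg3, with grey lines between roles and filled red points for an adjusted p under 0.05. Red points appear in the middle panel alone, Scg2, Scg5, Cpe and Sytl4 to the left of 0 and Vamp2 to the right.

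Among the 8 granins and granin-like genes, 2 were called lower in Grg3 Grg4 libraries (Scg2 and Scg5), 6 were not called, and all 8 fitted changes were below 0 (median -1.01). Scg2 (chr1:79434669-79440120, GRCm38, minus strand), which encodes secretogranin II, was at 105, 130.0 and 130.3 CPM in control replicates 1, 2 and 3, 112, 130.3 and 91.3 CPM in Grg3 and 51.1, 44.9 and 77.6 CPM in Grg3 Grg4 libraries. The Grg3 Grg4 libraries lay below all 6 others, while Grg3 and control libraries overlapped. The log2 change was -1.07 (SE 0.20, edgeR adjusted p = 0.0318) for Grg3 Grg4 against control, -0.13 (edgeR adjusted p = 0.776) for Grg3 against control, and -0.94 (SE 0.20, edgeR adjusted p = 0.0815) for Grg3 Grg4 against Grg3.

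Scg5 (chr2:113776362-113829121, minus strand) encodes 7B2, the chaperone that prohormone convertase 2 needs to mature. It was at 13.4, 15.2 and 15.4 CPM in control, 11.4, 12.4 and 8.41 CPM in Grg3 and 4.88, 5.16 and 9.34 CPM in Grg3 Grg4 libraries. Every library of either mutant group lay below every control, and Grg3 replicate 3 overlapped the Grg3 Grg4 range. Scg5 fell by 1.18 (SE 0.24, edgeR adjusted p = 0.0395) in Grg3 Grg4 libraries, and its change in Grg3 libraries was -0.45 (SE 0.24, edgeR adjusted p = 0.341).

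Chga (chr12:102554969-102565028, plus strand), the gene of chromogranin A, had the most negative fitted change of the 34 in both mutant groups. The main edgeR fit called it in neither. Its levels were 400.3, 525 and 457 CPM in control, 228, 257 and 148 CPM in Grg3 and 108, 94.4 and 258 CPM in Grg3 Grg4 libraries. All 6 mutant libraries lay below the lowest control, and Grg3 Grg4 replicate 3 stood at the level of the highest Grg3 library. The fitted change was -1.13 (SE 0.35, edgeR adjusted p = 0.129) in Grg3 and -1.59 (SE 0.35, edgeR adjusted p = 0.0522) in Grg3 Grg4 libraries. Chgb, encoding chromogranin B, was at 209.9, 218 and 237 CPM in control, 209.8, 237 and 151 CPM in Grg3 and 96.7, 92.3 and 173 CPM in Grg3 Grg4 libraries. The Grg3 range took in the whole control range, and the Grg3 Grg4 libraries lay below all controls, with a change of -0.88 (SE 0.24, edgeR adjusted p = 0.0843). DESeq2 and voom each called Chga and Chgb lower in Grg3 Grg4 libraries and called neither gene in Grg3 libraries.

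Scg3, whose product links granin aggregates to the granule membrane, was at 73.4, 89.7 and 84.8 CPM in control, 63.7, 74.5 and 54.1 CPM in Grg3 and 35.2, 34.7 and 63.6 CPM in Grg3 Grg4 libraries. Pcsk1n, the gene of the convertase inhibitor proSAAS, was at 69.5, 80.1 and 83.3 CPM in control, 61.7, 60.6 and 35.3 CPM in Grg3 and 24.2, 28.0 and 56.3 CPM in Grg3 Grg4 libraries. In both genes the Grg3 Grg4 libraries lay below all controls without an edgeR call, at -0.89 (SE 0.22, edgeR adjusted p = 0.0675) for Scg3 and -1.10 (SE 0.31, edgeR adjusted p = 0.0886) for Pcsk1n. Scg3 was called lower there by both DESeq2 and voom, and Pcsk1n by voom alone. The remaining granin-like genes were low: Resp18 ranged from 1.98 to 6.64 CPM and Vgf, a neuropeptide precursor, from 2.16 to 6.92 CPM, and both overlapped between all groups. In Grg3 Grg4 libraries Resp18 changed by -0.95 (SE 0.31, edgeR adjusted p = 0.129) and Vgf by -0.11 (SE 0.36, edgeR adjusted p = 0.901). DESeq2 called Resp18 lower there and voom did not.

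Of the 4 processing enzymes, 1 was called lower in Grg3 Grg4 libraries (Cpe) and 3 were not called. Cpe (chr8:64592542-64693054, minus strand) was at 478, 567 and 532 CPM in control, 428, 387 and 386 CPM in Grg3 and 301, 282 and 357 CPM in Grg3 Grg4 libraries. The 3 groups did not overlap: every control exceeded every Grg3 library, and every Grg3 library exceeded every Grg3 Grg4 library. Its change was -0.75 (SE 0.12, edgeR adjusted p = 0.0151) for Grg3 Grg4 and -0.39 (SE 0.11, edgeR adjusted p = 0.112) for Grg3 against control, and -0.35 (SE 0.11, edgeR adjusted p = 0.17) between the mutant groups.

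The 2 prohormone convertases differed in their values. Pcsk2 (prohormone convertase 2, the main convertase of alpha cells) was at 139, 171 and 185 CPM in control, 146, 144 and 115 CPM in Grg3 and 76.7, 69.7 and 133 CPM in Grg3 Grg4 libraries, with Grg3 Grg4 replicate 3 just under the lowest control. Its change in Grg3 Grg4 libraries was -0.82 (SE 0.23, edgeR adjusted p = 0.0873), and both DESeq2 and voom called it lower there. Pcsk1 (the convertase also called PC1, which starts proinsulin cleavage) was at 62.1, 73.5 and 85.0 CPM in control, 84.5, 66.9 and 75.4 CPM in Grg3 and 72.3, 49.9 and 70.0 CPM in Grg3 Grg4 libraries, and the 3 groups overlapped. Its change in Grg3 Grg4 libraries was -0.20 (SE 0.16, edgeR adjusted p = 0.525), with a 95% interval of -0.55 to 0.15. Pam, the peptide-amidating enzyme, ranged from 118 to 167 CPM over the 9 libraries, with all Grg3 libraries above all controls (log2 change 0.20, SE 0.08, edgeR adjusted p = 0.244) and Grg3 Grg4 libraries overlapping the controls.

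Granule membrane proteins gave 0 calls out of 3 in Grg3 Grg4 libraries, though each of the 3 had all Grg3 Grg4 libraries below all controls and an unadjusted p under 0.05 (edgeR). By DESeq2 and by voom, Ptprn, Ptprn2 and Syp were all called lower. Ptprn2, encoding the granule phosphatase-like protein phogrin, was at 181, 203 and 208 CPM in control, 141, 105 and 155 CPM in Grg3 and 141, 114 and 140.3 CPM in Grg3 Grg4 libraries. Both mutant groups lay below the controls and overlapped each other, with changes of -0.56 (SE 0.14, edgeR adjusted p = 0.0871) and -0.58 (SE 0.14, edgeR adjusted p = 0.0677). Ptprn (the islet antigen ICA512, a diabetes autoantigen of the granule membrane) was at 21.3, 24.7 and 26.1 CPM in control, 20.3, 25.0 and 16.6 CPM in Grg3 and 13.7, 11.8 and 19.99 CPM in Grg3 Grg4 libraries, and Syp (synaptophysin, of synaptic-like microvesicles) at 8.82, 8.21 and 7.43 CPM in control, 7.76, 8.90 and 5.49 CPM in Grg3 and 4.36, 4.67 and 5.61 CPM in Grg3 Grg4 libraries. Their Grg3 libraries overlapped the controls. The changes in Grg3 Grg4 libraries were -0.66 (edgeR adjusted p = 0.113) and -0.74 (edgeR adjusted p = 0.0721). Syp shares 16.8% of its exon bases with an antisense gene, Gm14703, so its count may hold reads of that gene.

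Of the 7 Rab GTPases and effectors, 1 was called lower in Grg3 Grg4 libraries (Sytl4) and 6 were not called. Sytl4 (chrX:133936385-133981812, minus strand) encodes granuphilin, the Rab27a effector that docks insulin granules. It was at 28.9, 33.4 and 38.4 CPM in control, 22.9, 27.3 and 21.3 CPM in Grg3 and 14.1, 11.7 and 21.0 CPM in Grg3 Grg4 libraries. As with Cpe, the 3 groups did not overlap. Its change was -1.11 (SE 0.20, edgeR adjusted p = 0.0284) in Grg3 Grg4 and -0.49 (SE 0.20, edgeR adjusted p = 0.22) in Grg3 libraries.

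Its partner Rab27a was at 34.8 to 36.2 CPM in control and 21.1 to 29.9 CPM in Grg3 Grg4 libraries, without overlap and without an edgeR call (log2 change -0.42, SE 0.12, edgeR adjusted p = 0.1). Rph3al, the Rab effector Noc2, was at 68.7 to 73.4 and 45.1 to 59.7 CPM, also without overlap (log2 change -0.50, SE 0.14, edgeR adjusted p = 0.0862). DESeq2 called both genes lower in Grg3 Grg4 libraries, and voom called Rph3al but not Rab27a. In Grg3 libraries Rab27a was at 32.8 to 35.3 CPM and Rph3al at 54.3 to 75.5 CPM, and both overlapped the controls. Rab3a, the Rab3 form best known from synapses and islets, gave a change of 0.00 with a 95% interval of -0.24 to 0.25 in Grg3 Grg4 libraries. Rab3b and Rab3c were at 5.23 and 2.36 CPM or less and overlapped between the groups. Rab3d was at 309.7, 335 and 320.3 CPM in control, 243, 161 and 302 CPM in Grg3 and 284, 222 and 245 CPM in Grg3 Grg4 libraries, and both mutant groups lay below the controls without a call (-0.45 and -0.36; edgeR adjusted p = 0.245 and 0.329).

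The 4 calcium sensors had 0 calls in Grg3 Grg4 libraries by edgeR, with all 4 at an unadjusted p under 0.05 and a median of -0.86. Syt13 and Scgn were called lower by both DESeq2 and voom, and Syt4 and Syt7 by neither. Syt13, a synaptotagmin linked to endocrine progenitors, was at 84.1, 92.6 and 101 CPM in control, 78.3, 87.1 and 64.0 CPM in Grg3 and 44.5, 39.4 and 69.1 CPM in Grg3 Grg4 libraries, a change of -0.86 (SE 0.20, edgeR adjusted p = 0.0542). Scgn (secretagogin, a calcium-binding protein of islet cells) was at 16.5, 20.02 and 21.2 CPM in control, 19.5, 17.3 and 14.6 CPM in Grg3 and 9.64, 8.04 and 14.1 CPM in Grg3 Grg4 libraries, a change of -0.86 (SE 0.20, edgeR adjusted p = 0.0571). In both genes the Grg3 Grg4 libraries lay below all controls and the Grg3 libraries overlapped them. Syt4, which rises as beta cells mature, had few counts, at 0.751, 1.09 and 1.01 CPM in control, 0.548, 0.796 and 0.547 CPM in Grg3 and 0.541, 0.397 and 0.326 CPM in Grg3 Grg4 libraries. Its change was -1.17 (SE 0.34, edgeR adjusted p = 0.101), and 14.5% of its exon bases overlap an antisense gene. Syt7, a major calcium sensor of insulin release, ranged from 26.4 to 33.8 CPM in control to 18.4 to 27.9 CPM in Grg3 Grg4 libraries, and these overlapped.

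In the fusion machinery, 1 of 6 genes was called, and it was higher. Vamp2 (chr11:69088490-69092384, plus strand) encodes synaptobrevin 2, the vesicle SNARE used in many cell types, acinar cells among them. It was at 80.2, 70.2 and 71.3 CPM in control, 94.0, 92.3 and 85.6 CPM in Grg3 and 97.9, 112 and 118 CPM in Grg3 Grg4 libraries. Each Grg3 library exceeded each control, and each Grg3 Grg4 library exceeded each Grg3 library. The change was 0.57 (SE 0.09, edgeR adjusted p = 0.0188) for Grg3 Grg4 against control, 0.30 (SE 0.09, edgeR adjusted p = 0.128) for Grg3 against control and 0.27 (SE 0.09, edgeR adjusted p = 0.184) between the mutant groups.

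The other SNARE genes did not share this pattern of values. Snap25, the plasma membrane SNARE, was at 5.65, 4.69 and 6.55 CPM in control, 5.02, 5.54 and 2.71 CPM in Grg3 and 2.47, 2.88 and 3.94 CPM in Grg3 Grg4 libraries, a change of -0.86 (SE 0.28, edgeR adjusted p = 0.131). Its other plasma membrane partner, Stx1a, stayed between 8.57 and 13.6 CPM in all libraries, with a change of -0.11 and a 95% interval of -0.47 to 0.26. Cplx2, the more abundant complexin per length, was at 73.9, 92.3 and 93.7 CPM in control, 79.7, 95.5 and 76.7 CPM in Grg3 and 53.9, 50.9 and 71.7 CPM in Grg3 Grg4 libraries, with all Grg3 Grg4 libraries below the other 6 (log2 change -0.56, SE 0.15, edgeR adjusted p = 0.0805). DESeq2 called Cplx2 and Snap25 lower in Grg3 Grg4 libraries, and voom called Cplx2 but not Snap25. Cplx1 was at 0.626, 0.461 and 0.638 CPM in control, 0.475, 0.535 and 0.203 CPM in Grg3 and 0.288, 0.309 and 0.163 CPM in Grg3 Grg4 libraries, levels at which its change of -1.16 had an SE of 0.46 (edgeR adjusted p = 0.191). Unc13a, a vesicle priming factor, overlapped between groups (log2 change 0.03, SE 0.18, edgeR adjusted p = 0.951). The remaining 2 genes, the RNA-binding protein gene Celf3 (31.4 to 36.1 CPM in control and 20.5 to 34.4 CPM in Grg3 Grg4 libraries) and the GABA-synthesis gene Gad1 (at most 2.73 CPM), overlapped between groups as well.

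**Figure D3:**
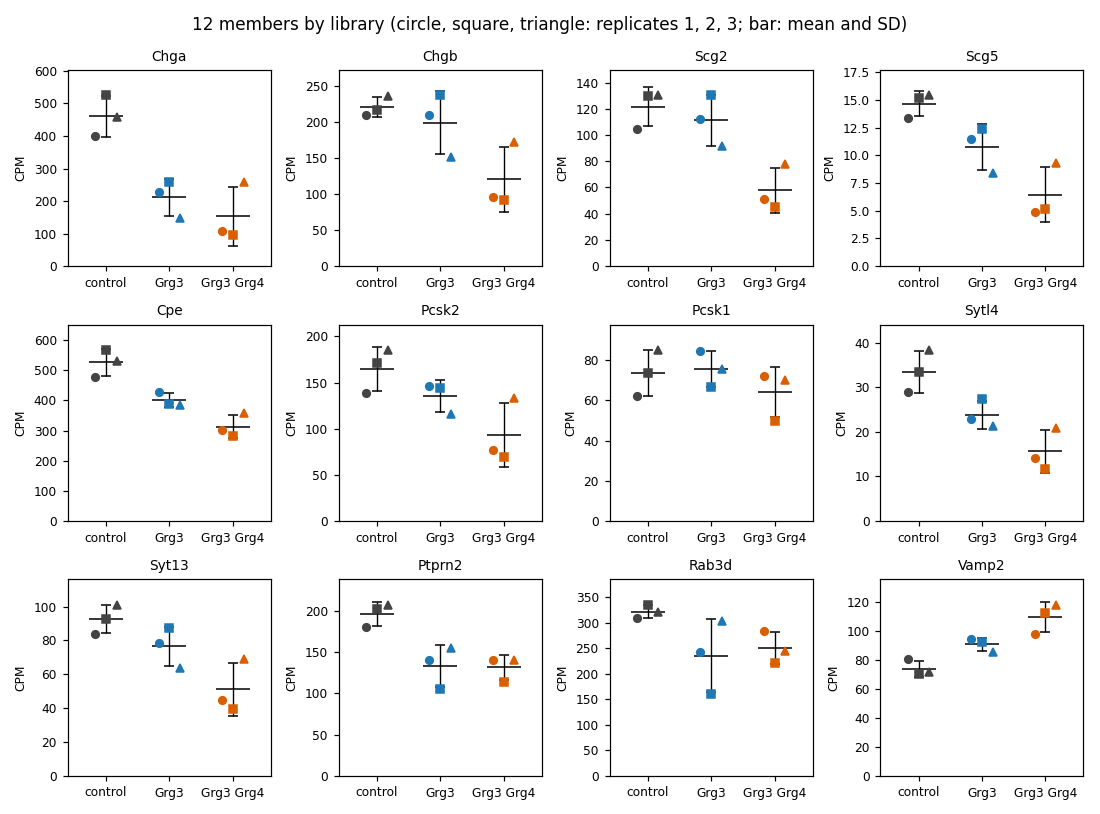
CPM by library for 12 of the 34 genes, with circles, squares and triangles for replicates 1, 2 and 3 of each group and a bar for mean and SD (n = 3). Vamp2 climbs from 70.2 to 80.2 CPM in control to 97.9 to 118 CPM in Grg3 Grg4 libraries, Pcsk1 overlaps between all groups, and the Grg3 Grg4 triangle (replicate 3) is the highest of its group in most panels.

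Libraries of a group stood apart from each other in the same order for most members. Grg3 Grg4 replicate 3 was the highest of its group for 26 of the 34 genes, and replicate 2 the lowest for 22. Among Grg3 libraries, replicate 3 was the lowest for 26 genes and replicate 2 the highest for 21. Among controls, replicate 3 was the highest for 24 genes and replicate 1 the lowest for 25. In the summed level of 8 islet hormone genes, Grg3 Grg4 replicate 3 was again the highest of its group and replicate 2 the lowest. Grg3 replicate 3 and control replicate 1 were again the lowest of their groups. The highest hormone sums of the Grg3 and control groups were in other libraries than for most members, Grg3 replicate 1 and control replicate 2. These sums were 5555, 6708 and 6328 CPM in control, 5603, 4968 and 3515 CPM in Grg3 and 2069, 1856 and 3916 CPM in Grg3 Grg4 libraries. The 16 endocrine transcription factors summed to 409, 449 and 422 CPM in control, 463, 497 and 398 CPM in Grg3 and 313, 278 and 427 CPM in Grg3 Grg4 libraries, so Grg3 Grg4 replicate 3 was inside the control range for the factors and outside it for the hormones. Ins1 changed by -1.43 (SE 0.33, edgeR adjusted p = 0.0551) and Ins2 by -1.52 (SE 0.30, edgeR adjusted p = 0.0353) in Grg3 Grg4 libraries, Ins2 past the threshold and Ins1 not. Gcg, the glucagon gene, changed by -0.88 (edgeR adjusted p = 0.115), the endocrine factor genes Neurod1 by -0.87 (edgeR adjusted p = 0.0798) and Isl1 by -0.07 (edgeR adjusted p = 0.829), none of these 3 called. Of all 16 endocrine factors, edgeR called 2 lower and 0 higher in Grg3 Grg4 libraries, against 0.897% and 1.24% of all genes. Their fitted changes were below 0 for 12 (48.1% of all genes) and above 0 for 4, with a median of -0.46.

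Ratios within a library were formed after these values were seen, and they are given as descriptions. Summed granins per 100 CPM of islet hormones were 15.8, 15.9 and 16.1 CPM in control, 12.4, 15.8 and 14.1 CPM in Grg3 and 15.7, 16.4 and 16.5 CPM in Grg3 Grg4 libraries. The Grg3 Grg4 values spread over the control range and past both of its ends, and all 3 Grg3 values lay below it. Per 100 CPM of endocrine transcription factors the granins stood at 215, 238 and 242 CPM in control, 150.2, 158 and 125 CPM in Grg3 and 104, 109 and 152 CPM in Grg3 Grg4 libraries. On that scale both mutant groups lay below all controls. Counted gene by gene against the hormones, 22 members were higher in every Grg3 Grg4 library than in every control, 1 was lower (Chga) and 11 overlapped. The hormone sum itself was lower in these libraries, and on this scale 83.7% of all genes tested were higher and 0.209% lower. In Grg3 libraries 1 member was lower, 5 were higher and 28 overlapped, against 0.95% lower and 32% higher over all genes. Against the transcription factors, 16 members were lower in Grg3 Grg4 libraries, 2 were higher and 16 overlapped, where all genes gave 2.02% lower and 25.4% higher. In Grg3 libraries 15 were lower, 1 was higher and 18 overlapped on that scale, where all genes gave 12.3% lower and 7.01% higher.

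Ratios between 2 members, also chosen after their values were seen, were tested over libraries. Reads of Chga per read of Chgb were 1.91, 2.41 and 1.93 in control, 1.09, 1.08 and 0.980 in Grg3 and 1.11, 1.02 and 1.49 in Grg3 Grg4 libraries, so every mutant library lay below every control. Reads of Pcsk1 per read of Pcsk2 were 0.449, 0.429 and 0.459 in control, 0.578, 0.466 and 0.654 in Grg3 and 0.943, 0.716 and 0.525 in Grg3 Grg4 libraries, with every mutant library above every control. Chga per Scg2 was 3.83, 4.04 and 3.51 in control, 2.04, 1.97 and 1.62 in Grg3 and 2.11, 2.10 and 3.32 in Grg3 Grg4 libraries. For each of these 3 ratios and each mutant group the exact 2-sided permutation test gave p = 0.1, the smallest value that 3 against 3 allows, so the design cannot reach 0.05 for a single ratio. Groups of this size that do not overlap always give that value, so the test adds nothing to the lack of overlap already seen. Adjusted over the 10 tests of the 5 ratios, the value was 0.143.

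Ptprn2 and Rab3d were also set against the summed level of 34 acinar enzyme genes, which was 405280.0 to 468543 CPM in control, 217982 to 416419 CPM in Grg3 and 267035 to 305014 CPM in Grg3 Grg4 libraries. Per 100000 CPM of these enzymes, Ptprn2 was at 45.3 ± 2.51 CPM in control, 43.2 ± 5.65 CPM in Grg3 and 45.3 ± 2.44 CPM in Grg3 Grg4 libraries (SD, n = 3; exact permutation p = 0.7 and 1.0 against control, 0.875 and 1.0 adjusted). Rab3d was at 74.0 ± 2.52, 74.2 ± 1.71 and 86.3 ± 7.94 CPM on the same scale (exact permutation p = 1.0 and 0.1, 1.0 and 0.143 adjusted). In CPM both genes had been below control in every mutant library, and per acinar enzyme the values overlapped, except that Rab3d was higher in all Grg3 Grg4 libraries. The enzyme sum itself was lower in all Grg3 Grg4 libraries than in all controls, so a gene with steady CPM would rise on this scale. The share of all genes that rise on it was not computed, and the part of acinar cells in these values was not tested.

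**Figure D4:**
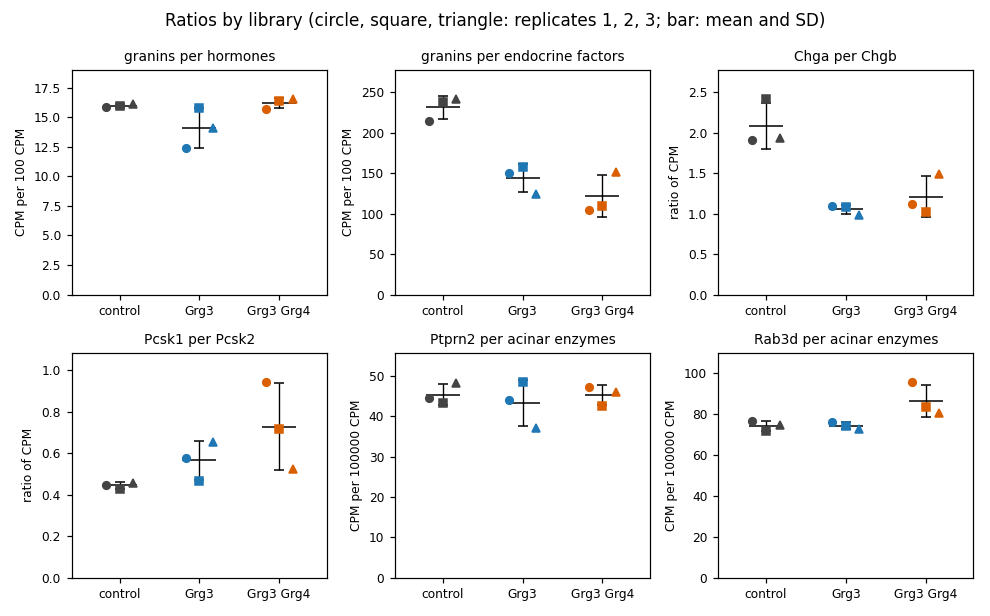
Ratios within each library in 6 panels, with circles, squares and triangles for replicates 1, 2 and 3 of each group and a bar for mean and SD (n = 3). Granins per hormones stay between 12.4 and 16.5 in all 9 libraries, while Chga per Chgb lies at 1.91 to 2.41 in control and 0.980 to 1.09 in Grg3 libraries.

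A wider set of 102 genes of the same pathway (processing, granule biogenesis and exocytosis, none of them members) put the members in context, and 95 of these were tested. In Grg3 Grg4 libraries 2 were called lower and 0 higher by edgeR, against 0.897% and 1.24% of all genes, with a median of -0.11. An unadjusted p under 0.05 was reached by 19, a share near the 20.2% of all genes. All Grg3 Grg4 libraries lay below all controls for 21 and above them for 12, against 14.2% and 14.9% of all genes. Slc30a8, the zinc transporter of insulin granules, fell by 1.23 (SE 0.26, edgeR adjusted p = 0.0465), from 24.1 to 33.8 CPM to 8.58 to 18.9 CPM. Sytl5, a relative of granuphilin, fell by 0.84 (SE 0.16, edgeR adjusted p = 0.0306), from 6.88 to 9.22 CPM to 3.94 to 5.10 CPM. In Grg3 libraries 1 of the 95 was called lower, where 0.694% of all genes were. It was Syt12, a synaptotagmin that does not bind calcium, at 1.79, 1.84 and 1.61 CPM in control and 0.530, 0.563 and 0.669 CPM in Grg3 libraries (log2 change -1.57, SE 0.25, edgeR adjusted p = 0.0201). Its Grg3 Grg4 libraries were at 1.57, 1.79 and 1.35 CPM, a difference from Grg3 of 1.42 (SE 0.25, edgeR adjusted p = 0.0537). Between the mutant groups 0 of the 95 were called by edgeR, with 10 at an unadjusted p under 0.05, a share below the 17.3% of all genes. After Syt12 the smallest p was that of the SNARE gene Vamp1 (log2 change 0.51, SE 0.14, edgeR adjusted p = 0.13).

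Neurons, enteroendocrine cells and chromaffin cells also express many of the 34 genes, and their markers were measured in the same libraries. The 18 neuron markers, none of them at 0 throughout a group, summed to 103 to 113 CPM in control, 95.8 to 166 CPM in Grg3 and 93.6 to 116 CPM in Grg3 Grg4 libraries. Elavl4, an RNA-binding protein of neurons, was at 1.86 to 2.20, 1.64 to 2.74 and 1.02 to 3.19 CPM, with overlap between the groups. Of the 17 neuron markers tested, 2 were below 0 in Grg3 libraries (median 0.39) and 11 in Grg3 Grg4 libraries (median -0.10). In Grg3 Grg4 minus Grg3, 15 were below 0 (median -0.69). All genes gave 47.5%, 48.1% and 50.3% below 0. EdgeR called 0 of the 17 in each comparison, where it called 1.4%, 2.14% and 0.188% of all genes. The 7 Schwann cell markers summed to 62.7 to 67.3, 57.0 to 70.1 and 57.4 to 60.6 CPM, among them Sox10 at 4.58 to 7.89, 4.46 to 10.2 and 3.90 to 5.83 CPM. The sums of these nerve markers overlapped between the control and Grg3 Grg4 libraries for neurons and lay below control for Schwann cells. Gene by gene, the 7 Schwann cell markers went both ways in Grg3 Grg4 libraries. Of their fitted changes 4 were above 0 and 3 below (median 0.23), with 1 called lower by edgeR (0.897% of all genes). Their mean log2 level, which weighs each gene alike, overlapped between control and Grg3 Grg4 libraries.

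Chromaffin markers (3 genes) summed to 1.78 to 2.11 CPM, 2.55 to 3.84 CPM and 1.37 to 1.92 CPM, with Th at 1.75 to 2.09, 2.41 to 2.94 and 1.19 to 1.88 CPM. The defining gene Pnmt was at 0 in all control libraries and did not pass the filter on low counts. No chromaffin marker was at 0 throughout a mutant group, a limit that a few reads in 1 library would meet. In each group 1 of the 3 markers reached a mean of 1 CPM. The 2 chromaffin markers tested changed by 0.49 and 3.55 in Grg3 libraries, and by -0.40 and 2.45 in Grg3 Grg4 libraries, without a call. The 7 enteroendocrine markers summed to 2.76 to 4.51 CPM in control, 19.6 to 24.6 CPM in Grg3 and 9.75 to 12.4 CPM in Grg3 Grg4 libraries, and in both mutant groups most of the sum was gastrin: Gast was at 0.712 to 1.12, 17.5 to 20.6 and 7.61 to 10.9 CPM. Gast changed by 4.39 (SE 0.21, edgeR adjusted p = 1.03e-05) in Grg3 and 3.23 (SE 0.21, edgeR adjusted p = 0.000149) in Grg3 Grg4 libraries. It was the 1 enteroendocrine marker called in each, where 0.704% and 1.24% of all genes were called higher. The 7 markers went both ways: 4 were above 0 and 3 below in Grg3 libraries (median 0.23). In Grg3 Grg4 libraries 3 were above 0 and 4 below (median -0.11). The part of these cell types in the members' values was not tested.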

How the data were processed

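RNA-seq of whole e18.5 pancreas gave 9 libraries, from 3 embryos per genotype per the series' design text. The deposited files hold raw counts per gene symbol, 1 file per library, and 5 rows that name no gene, which took 28.5% to 33.2% of reads and were left out. Per the submitters' processing notes, the tools were HISAT2, HTSeq, DESeq2, bedtools, Trim Galore and FastQC, and the builds GRCm38 and mm10. Neither annotation nor strand setting is given in the sources used here, so antisense overlaps cannot be separated.

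Counts were tested with edgeR 4.0.16 (quasi-likelihood F test, TMM scaling, filterByExpr with minimum count 10 and total 15) in R 4.3.3, on all 9 libraries in 1 fit, adjusted over 19166 genes by Benjamini-Hochberg. CPM are TMM-scaled, and CPM per kb use merged exons of GENCODE M21. Alternatives used DESeq2 1.42.0, limma 3.58.1 (voom with quality weights), other scalings and filters, a sex term, a replicate block, 6 libraries, and each library left out. The test was checked on simulated counts. Within a group, libraries were further apart than Poisson sampling gives (chi-square per degree of freedom 18.5 to 213).

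The members and lists were chosen with earlier results of these data known. Values in every library are given for called members, for Chga, Chgb, Pcsk1 and Pcsk2, and for members whose Grg3 Grg4 and control libraries did not overlap with a log2 change of at least 0.5 in size. The library values of Rab3d and the ranges of Rab27a and Rph3al were added after their values were seen. From the pathway list, the text names up to 4 called genes per comparison, or the 2 with the smallest p, and from other lists a fixed set of markers, of which 1 is not reported here; Gast and Pnmt were added after their values were seen.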

Additional observations from a re-analysis of the deposited data

How the results depend on the processing

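No member changed direction in a call under any alternative run. In Grg3 Grg4 libraries against control, the 4 members called lower (0.897% of all genes) became 16 with no filter beyond 1 count (1.02% of all genes), 7 with only the 6 libraries compared (1.84%), 18 by DESeq2 (3.45%), 16 by limma's voom (2.51%) and 0 with embryo sex as a term (0.0783%). They ranged from 0 to 15 when 1 library was left out, and all genes from 0.131% to 0.9%. The 1 member called higher became 0 with embryo sex as a term and ranged from 0 to 1 with 1 library left out. In Grg3 libraries, the 0 called lower by edgeR became 2 with no filter (Chga and Ptprn2; 0.831% of all genes), 1 with only the 6 libraries compared (Chga; 0.603%) and 2 by DESeq2 (3.99%). Between the mutant groups, the 0 called lower became 1 with no filter (Scg2; 0.252% of all genes) and 7 by DESeq2 (2.13%). The cause was not tested.

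Medians over the members moved by less than their spread: that of Grg3 Grg4 against control ran from -0.80 to -0.56 over the alternatives. With embryo sex as a term, the change was -0.73 for Cpe, -0.97 for Scg2, -1.17 for Scg5, -0.97 for Sytl4 and 0.48 for Vamp2 (edgeR adjusted p = 0.116, 0.172, 0.175, 0.167 and 0.141). Only control replicate 1 of the controls is male while all Grg3 Grg4 libraries are, so sex and genotype are only partly separable. The replicate number as a block left 2 members called lower (Cpe and Sytl4; 0.543% of all genes) and Vamp2 called higher. Same-numbered libraries did not deviate together (correlation of deviations -0.086 to 0.094 over the 9 pairs), and not every library correlated best with its own number, so the numbers are not taken to pair the libraries. With 3 libraries a group, genes of few counts, such as Syt4 and Cplx1, have wide intervals.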
